A study of Mus musculus with 8 samples.

Results

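The 10 genes described here encode 8 matrix metalloproteinases (Mmp2, Mmp3, Mmp8, Mmp9, Mmp12, Mmp13, Mmp14 and Mmp19) and 2 tissue inhibitors of metalloproteinases (Timp1 and Timp3). They were chosen by name, as the rows of the lung count table whose Entrez identifiers map to these symbols, and all 10 were found among the 23469 genes of the table. The table comes from lungs of DDAH1-transgenic (TG) mice and of C57BL/6 wild type (WT) mice. DDAH1 is an enzyme that degrades asymmetric dimethylarginine, an endogenous inhibitor of nitric oxide synthase. Mice of both genotypes received either 100 µg of house dust mite extract (HDM) in 50 µl of saline (PBS), or the same volume of PBS alone, into the trachea 3 times per week for 3 weeks. Airway responses to methacholine were measured 24 hours after the final dose. Blood, bronchoalveolar lavage fluid and lungs were collected after this measurement. Whether the lungs used for RNA had been lavaged is not given in the sources used here. The groups are thus PBS-treated wild type, HDM-treated wild type, PBS-treated DDAH1-transgenic and HDM-treated DDAH1-transgenic mice. RNA of 4 mice was pooled in each group and each pool gave 2 libraries, so that the spread between the 2 libraries is technical and contains no variation between mice. The promoter of the transgene and the age of the mice are not given in the sources used here.

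MMPs are zinc-dependent endopeptidases that cut collagens, elastin, fibronectin and other proteins of the extracellular matrix, and they also release or inactivate cytokines and chemokines. Most are secreted as inactive proenzymes that other proteases activate, and TIMPs bind the active enzymes and block them. In the lung, macrophages, neutrophils, fibroblasts and epithelial cells make different members of the family, and MMP-12, the macrophage metalloelastase, is known for its association with allergic airway inflammation and emphysema.

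The 8 libraries held between 5694928 and 11929374 counts, and the smallest was HDM-treated DDAH1-transgenic replicate 1. A value of 3 counts corresponded to between 0.232 and 0.450 counts per 1000000 (CPM, scaled by edgeR's TMM method over all 8 libraries), which is the lowest level that counting error allows to be told from 0. The label of lung was checked by 7 markers of lung epithelium, which summed to between 21080 and 72038 CPM in a library. Ddah1 was 77.0 and 53.8 CPM in PBS-treated DDAH1-transgenic libraries and 47.8 and 34.3 CPM in PBS-treated wild type libraries, whereas after HDM it was 34.9 and 33.4 CPM in DDAH1-transgenic and 43.1 and 44.7 CPM in wild type libraries. Neither difference passed the test (adjusted p = 0.358 and 0.637, edgeR's quasi-likelihood test, Benjamini-Hochberg adjusted), and in the HDM-treated libraries Ddah1 was lower under the transgenic label. Reads were placed on the mouse genome, and the sequence of the transgene is not given in the sources used here. Whether these counts include RNA of the transgene is thus not known. DDAH1-transgenic below therefore means the libraries labelled so. Xist ranged from 11.3 to 20.8 CPM across the 4 libraries given PBS, and lay between 2049 and 3042 CPM in the 4 HDM-treated libraries, and the 4 Y-linked genes examined fell after HDM in both genotypes, so that HDM and the sex of the mice cannot be told apart in any comparison of HDM with PBS. The 6 markers of skeletal muscle summed to 41.4 and 44.2 CPM in PBS-treated wild type libraries and to between 97.7 and 215 CPM in the others.

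Of the 10 genes, 4 lie close together on chromosome 9 of GRCm38.p6, in the order Mmp13 (chr9:7272514-7283333), Mmp12 (chr9:7344397-7360461), Mmp3 (chr9:7445822-7455975) and Mmp8 (chr9:7558429-7568486), all on the plus strand. Mmp2 lies on chromosome 8, Mmp9 on chromosome 2, Mmp14 on chromosome 14, Mmp19 and Timp3 on chromosome 10, and Timp1 on chromosome X. Timp1 lies within Syn1 and Timp3 within Syn3, and Mmp19 overlaps Tmem198b. Whether the counting used strand is not given in the sources used here, so reads of these pairs may not be separable. Of the stretches of 50 bases in the Timp3 transcript, 36.0% also occur in transcripts of Syn3, and of those of Mmp19, 22.1% also occur in Tmem198b. Mmp3 shares 7.99% of its stretches with Mmp10, a neighbouring stromelysin. Mmp2, Mmp8, Mmp9, Mmp12, Mmp13 and Timp1 share 0 stretches with other genes, and Mmp14 shares 0.746%.

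The promoter windows below are shown because transcription factor AP-1, a dimer of Fos and Jun proteins, is a textbook regulator of several MMP genes and of Timp1, and because Mmp12, Mmp13 and Timp1 were among the genes that rose after HDM. RefSeq (GRCm38.p6) gave windows of 300 bases, 250 before and 50 after a transcription start, for 7 of the 10 genes, with 2 windows for Mmp12. The AP-1 consensus was searched as TGACTCA or TGAGTCA, which are reverse complements of each other, so that both strands were covered. It occurred in the windows of Mmp13, Mmp12 and Mmp3, where it began 35, 44 and 46 bases before the start, and in 5.95% of the 27025 genes with a window. A related string, TGAGTAA or its reverse complement TTACTCA, occurred only in the window of Timp1 among the 7 genes, 26 bases after the start, and in 3.09% of all genes with a window. None of these strings is in the windows of Mmp8, Mmp14 and Timp3 or in the other window of Mmp12. That other window (chr9:7344147-7344446) is the one at the gene start of Mmp12 given above. Each sequence is given 5′ to 3′ on the plus strand, and capitals mark the matching string. Mmp3 is shown as the gene that holds the AP-1 consensus, as Mmp12 and Mmp13 do, but whose change after HDM did not pass the test. On the plus strand it reads TGAGTCA in Mmp3 and Mmp12 and TGACTCA in Mmp13. A match describes the letters in these windows and not a bound site.
Mmp12, chr9:7347124-7347423: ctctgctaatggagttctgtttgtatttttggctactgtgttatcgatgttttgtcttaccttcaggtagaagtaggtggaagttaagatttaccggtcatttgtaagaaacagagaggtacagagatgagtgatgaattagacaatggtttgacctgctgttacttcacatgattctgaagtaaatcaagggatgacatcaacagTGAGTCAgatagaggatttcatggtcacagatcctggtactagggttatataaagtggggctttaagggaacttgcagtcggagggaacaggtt
Mmp13, chr9:7272264-7272563: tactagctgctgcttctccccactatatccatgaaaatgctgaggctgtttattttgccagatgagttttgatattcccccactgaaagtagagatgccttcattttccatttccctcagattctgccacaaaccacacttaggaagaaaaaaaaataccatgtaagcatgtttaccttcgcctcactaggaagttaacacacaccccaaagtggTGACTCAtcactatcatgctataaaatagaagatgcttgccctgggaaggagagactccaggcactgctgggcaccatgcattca
Mmp3, chr9:7445572-7445871: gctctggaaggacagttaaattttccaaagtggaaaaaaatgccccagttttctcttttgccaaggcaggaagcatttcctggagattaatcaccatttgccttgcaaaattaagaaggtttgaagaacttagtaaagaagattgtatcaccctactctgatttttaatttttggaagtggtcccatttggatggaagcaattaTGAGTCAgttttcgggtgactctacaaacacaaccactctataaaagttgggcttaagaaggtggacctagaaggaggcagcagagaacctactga
Timp1, chrX:20869916-20870215: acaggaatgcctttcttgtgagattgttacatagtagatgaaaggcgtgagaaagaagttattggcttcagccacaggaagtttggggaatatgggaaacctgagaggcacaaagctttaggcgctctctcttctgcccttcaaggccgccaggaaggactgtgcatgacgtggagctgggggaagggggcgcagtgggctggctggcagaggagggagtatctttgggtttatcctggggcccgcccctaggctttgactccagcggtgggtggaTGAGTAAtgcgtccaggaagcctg

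After HDM, the RNA of macrophage elastase, Mmp12, had the largest fold change of the 10 members in both genotypes, and Timp1, Mmp19 and Mmp2 rose with it, while Timp3, the most abundant member in PBS-treated lungs, fell. In wild type mice, 5 of the 10 members rose (Mmp12, Mmp13, Timp1, Mmp19 and Mmp2), 1 fell (Timp3) and 4 did not pass the test. Of the 15123 genes tested in wild type mice, 6.74% were called in either direction, 4.44% as higher and 2.3% as lower. In DDAH1-transgenic mice, 4 members rose (Mmp12, Timp1, Mmp19 and Mmp2), 1 fell (Timp3) and 5 did not pass, against 13.8% of 15086 genes tested, 8.43% higher and 5.35% lower. The median log2 fold change of the members was 0.82 in wild type and 1.30 in DDAH1-transgenic mice, while that of all genes tested was 0.02 and 0.03. The libraries of the PBS- and HDM-treated groups did not overlap for 8 of 10 members in each genotype, which was also the case for 49.8% of all genes in wild type and 56.8% in DDAH1-transgenic mice. In bulk lung RNA, a change in the number of cells of a type and a change in RNA per cell cannot be told apart.

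**Figure D1:**
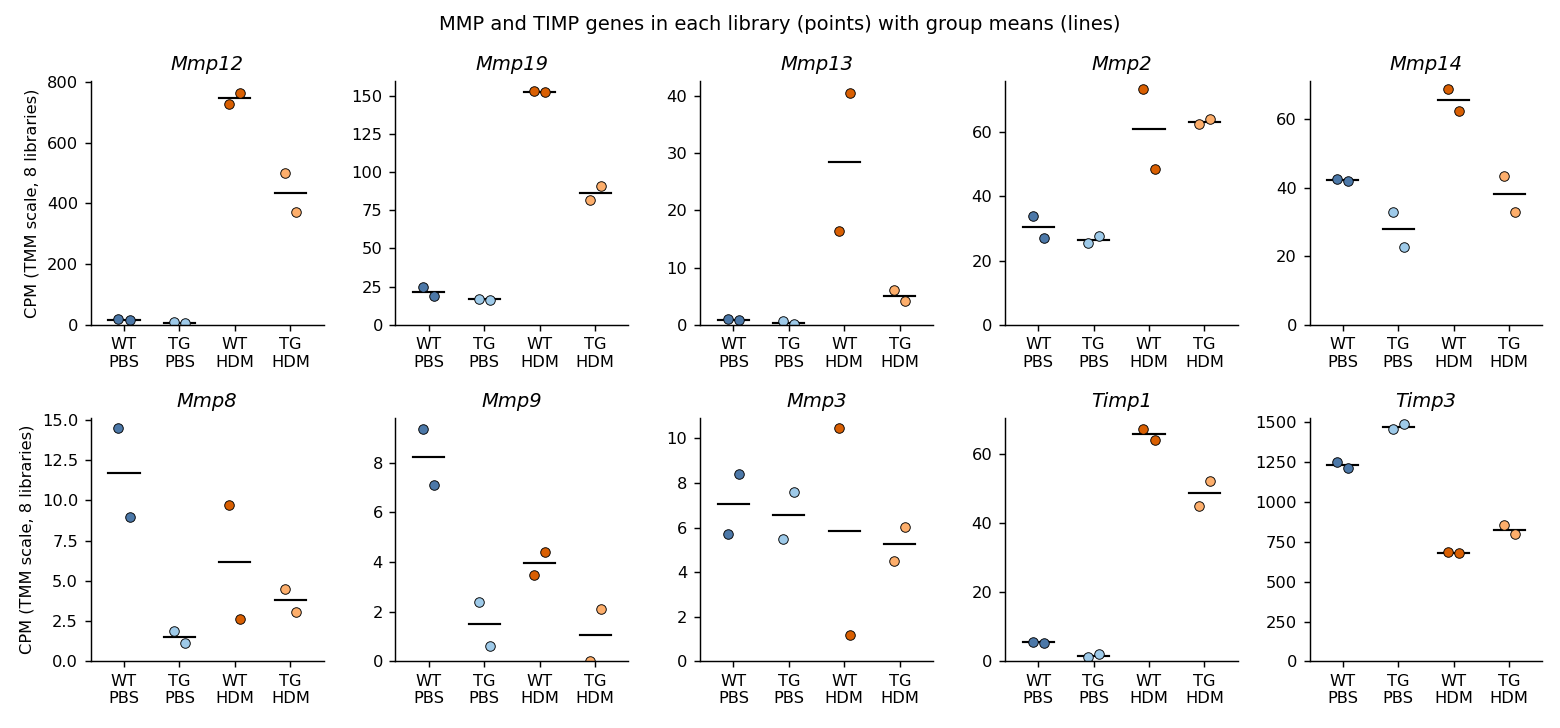
Level of each of the 10 genes in counts per 1000000 (CPM, linear axes that start at 0) in the 8 libraries, with 2 points per group for the 2 libraries of 1 RNA pool and a line at their mean. Mmp12 ranged from 5.92 to 19.1 CPM in libraries of PBS-treated mice and from 372 to 766 CPM after HDM, and Timp3 was lower in all 4 HDM-treated libraries than in any PBS-treated library.

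Mmp12, which degrades elastin, was 19.1 and 14.9 CPM in PBS-treated wild type libraries, 729 and 766 CPM after HDM, 8.29 and 5.92 CPM in PBS-treated DDAH1-transgenic libraries and 499 and 372 CPM after HDM. The HDM-treated libraries of each genotype were thus far above all PBS-treated libraries, and the 4 groups did not overlap with each other. The fold change was 44.0 in wild type mice (log2 5.46, SE 0.17, adjusted p = 6.79e-11, edgeR's quasi-likelihood test, Benjamini-Hochberg adjusted) and 62.2 in DDAH1-transgenic mice (log2 5.96, SE 0.29, adjusted p = 1.62e-07, same test). The 9 markers of alveolar macrophages summed to 585 and 593 CPM in PBS-treated wild type, 9509 and 9751 CPM in HDM-treated wild type, 735 and 772 CPM in PBS-treated DDAH1-transgenic and 3856 and 4829 CPM in HDM-treated DDAH1-transgenic libraries, and most of this sum was Chil3, a chitinase-like protein of macrophages. In HDM-treated compared to PBS-treated wild type mice 3 of these 9 markers passed the test as higher (Chil3, Itgax and Mrc1) and 0 as lower. Their log2 fold changes were positive for 5 and negative for 4. In DDAH1-transgenic mice 4 passed as higher and 0 as lower, with 6 positive and 3 negative. All 8 markers of monocytes and interstitial macrophages had positive log2 fold changes in both genotypes. Of these, 5 passed as higher in wild type and 7 in DDAH1-transgenic mice. Among all genes tested, 4.44% passed as higher in wild type and 8.43% in DDAH1-transgenic mice. The part of macrophage number in the Mmp12 difference was not tested.

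The collagenases are Mmp13, which cleaves fibrillar collagens and is made by fibroblasts and macrophages, and Mmp8, the collagenase stored in neutrophils. Mmp13 was 1.01 and 0.82 CPM in PBS-treated and 16.4 and 40.6 CPM in HDM-treated wild type libraries, 0.60 and 0.11 CPM in PBS-treated and 5.99 and 4.11 CPM in HDM-treated DDAH1-transgenic libraries. All HDM-treated libraries were above all PBS-treated ones, the latter resting on between 1 and 10 counts. Mmp13 rose 31.0-fold in wild type mice (log2 4.96, SE 0.57, adjusted p = 7.92e-05, edgeR's quasi-likelihood test, Benjamini-Hochberg adjusted), and the log2 fold change was 4.15 without HDM-treated wild type replicate 2, the higher of the 2 libraries. In DDAH1-transgenic mice the log2 fold change of Mmp13 was 3.81 (SE 1.19), and its adjusted p of 0.0527 by the same edgeR test missed the threshold, with values between 0.00216 and 0.278 over the alternatives, of which DESeq2 (0.0168), no low-count filter (0.0269) and a fit of all 8 libraries (0.00216) passed. Mmp8 was 14.5 and 8.98 CPM in PBS-treated and 9.74 and 2.61 CPM in HDM-treated wild type libraries, which overlapped, and 1.90 and 1.16 CPM in PBS-treated and 4.50 and 3.10 CPM in HDM-treated DDAH1-transgenic libraries, which did not. Neither difference passed the test (log2 -0.92, SE 0.61, adjusted p = 0.448 in wild type, and log2 1.33, SE 0.99, adjusted p = 0.430 in DDAH1-transgenic mice, edgeR's quasi-likelihood test). The Mmp8 value in HDM-treated wild type mice depended on the library, since without replicate 1 the log2 fold change was -2.16 with an adjusted p of 0.0178, over a range from 0.0178 to 0.864 for all alternatives.

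The gelatinases Mmp2 and Mmp9 digest denatured collagen and collagen IV, Mmp2 mostly as a product of fibroblasts and Mmp9 as a product of neutrophils and macrophages. Mmp2 was 34.0 and 27.0 CPM in PBS-treated and 73.6 and 48.6 CPM in HDM-treated wild type libraries, 25.4 and 27.6 CPM in PBS-treated and 62.5 and 64.2 CPM in HDM-treated DDAH1-transgenic libraries. It rose 2.01-fold in wild type mice (log2 1.01, SE 0.27, adjusted p = 0.0397) and 2.43-fold in DDAH1-transgenic mice (log2 1.28, SE 0.28, adjusted p = 0.0116, both by edgeR's quasi-likelihood test, Benjamini-Hochberg adjusted). The wild type call was lost without PBS-treated replicate 2 (adjusted p = 0.225) or HDM-treated replicate 1 (adjusted p = 0.198), over a range from 0.00104 to 0.225 by edgeR and DESeq2, and the DDAH1-transgenic call was lost without PBS-treated replicate 1 (adjusted p = 0.138) or replicate 2 (adjusted p = 0.136), over a range from 0.000914 to 0.138. Mmp9 was 9.35 and 7.11 CPM in PBS-treated and 3.49 and 4.42 CPM in HDM-treated wild type libraries, 2.40 and 0.63 CPM in PBS-treated and 0 and 2.09 CPM in HDM-treated DDAH1-transgenic libraries. The wild type groups did not overlap and the DDAH1-transgenic groups did, and neither difference passed the test (log2 -1.06, SE 0.60, adjusted p = 0.358, and log2 -0.46, SE 1.49, adjusted p = 0.886, edgeR's quasi-likelihood test). The library with 0 counts of Mmp9 was also the smallest, where 3 counts correspond to 0.450 CPM.

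Among the remaining MMPs, Mmp19 is a broad-specificity enzyme, Mmp14 is a membrane-anchored collagenase that activates pro-MMP-2, and Mmp3 is a stromelysin that activates other proenzymes. Mmp19 was 24.5 and 18.9 CPM in PBS-treated and 153 and 153 CPM in HDM-treated wild type libraries, 16.9 and 16.5 CPM in PBS-treated and 81.5 and 90.9 CPM in HDM-treated DDAH1-transgenic libraries. It rose 7.05-fold in wild type (log2 2.82, SE 0.21, adjusted p = 8.78e-07) and 5.25-fold in DDAH1-transgenic mice (log2 2.39, SE 0.28, adjusted p = 0.000255, both by edgeR's quasi-likelihood test, Benjamini-Hochberg adjusted). Tmem198b, which overlaps Mmp19, went from 7.64 and 6.21 CPM to 40.2 and 40.9 CPM in wild type libraries (log2 2.55, SE 0.34, adjusted p = 0.000291, same edgeR test). Mmp14 was 42.6 and 42.0 CPM in PBS-treated and 68.7 and 62.3 CPM in HDM-treated wild type libraries, 32.9 and 22.7 CPM in PBS-treated and 43.5 and 32.9 CPM in HDM-treated DDAH1-transgenic libraries. Its groups did not overlap in either genotype, but in DDAH1-transgenic mice the nearest libraries were almost equal, at 32.85 CPM (PBS) and 32.92 CPM (HDM). The log2 fold changes of 0.63 (SE 0.22, adjusted p = 0.115) and 0.48 (SE 0.34, adjusted p = 0.397) did not pass the edgeR test. Mmp3 was 5.73 and 8.41 CPM in PBS-treated and 10.5 and 1.21 CPM in HDM-treated wild type libraries, 5.49 and 7.61 CPM in PBS-treated and 4.50 and 6.04 CPM in HDM-treated DDAH1-transgenic libraries. The 2 HDM-treated wild type libraries lay on either side of all the others, and neither difference passed the test (log2 -0.27, SE 0.78, and log2 -0.29, SE 0.66, adjusted p = 0.896 and 0.830, edgeR's quasi-likelihood test). Without HDM-treated wild type replicate 1, the higher library, Mmp3 had a log2 fold change of -2.54 and an adjusted p of 0.0412 in wild type mice, the lowest over its alternatives, whose highest was 0.998.

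The 2 inhibitors moved in opposite directions. Timp1, a secreted inhibitor induced in inflammation, was 5.73 and 5.23 CPM in PBS-treated and 67.1 and 64.1 CPM in HDM-treated wild type libraries, 1.40 and 2.01 CPM in PBS-treated and 45.0 and 52.1 CPM in HDM-treated DDAH1-transgenic libraries. It rose in wild type mice (log2 3.58, SE 0.30, adjusted p = 3.21e-06) and in DDAH1-transgenic mice (log2 4.85, SE 0.43, adjusted p = 3.46e-05, both by edgeR's quasi-likelihood test, Benjamini-Hochberg adjusted). The second value rests on 14 and 19 counts in the PBS-treated libraries and was log2 4.13 with an offset for gene length. Timp3, which binds to the matrix and also inhibits ADAM proteases, was 1252 and 1215 CPM in PBS-treated and 686 and 681 CPM in HDM-treated wild type libraries, 1458 and 1489 CPM in PBS-treated and 853 and 800 CPM in HDM-treated DDAH1-transgenic libraries. It fell to 0.554 times the PBS level in wild type (log2 -0.85, SE 0.10, adjusted p = 9.27e-05) and to 0.570 times in DDAH1-transgenic mice (log2 -0.81, SE 0.15, adjusted p = 0.00479, both by edgeR's quasi-likelihood test). The DDAH1-transgenic call for Timp3 was lost without PBS-treated replicate 1 (adjusted p = 0.096) or replicate 2 (adjusted p = 0.124), over a range from 8.07e-06 to 0.124. Syn3, the gene that contains Timp3, was between 6.70 and 24.7 CPM in all libraries, far below Timp3, and Syn1, which contains Timp1, between 0.503 and 20.7 CPM.

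**Figure D2:**
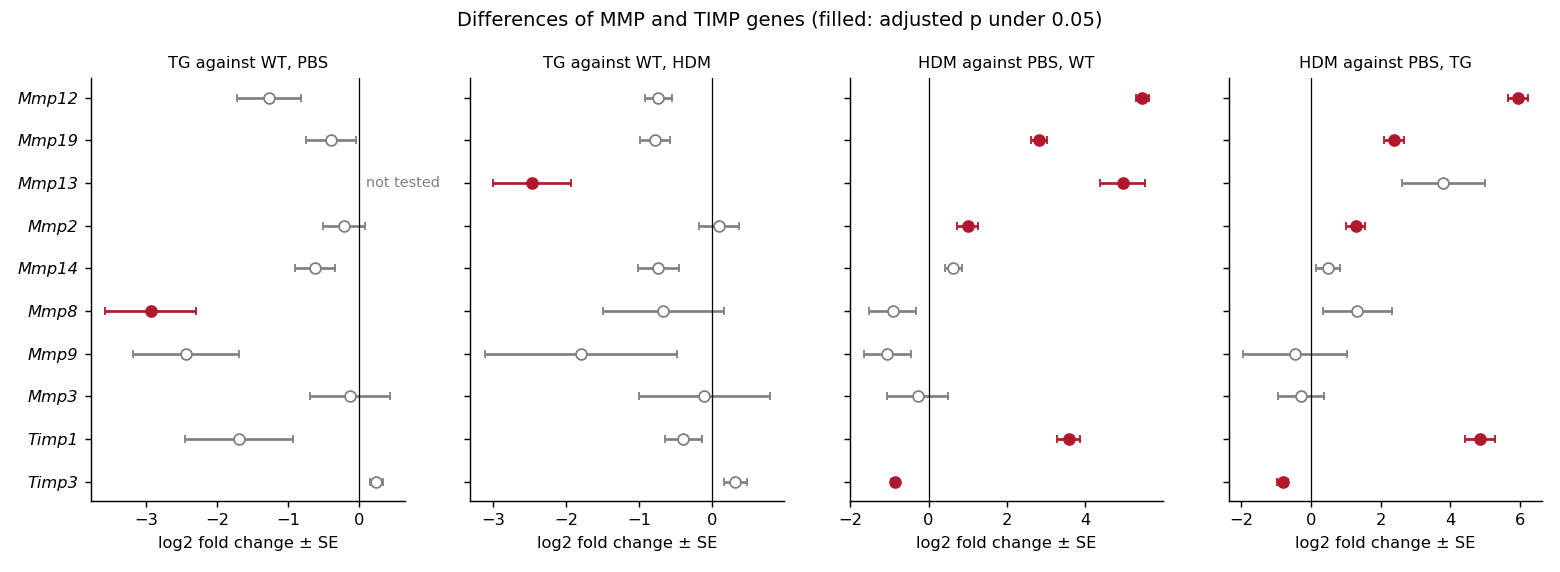
Log2 fold change of each of the 10 genes (points) with its standard error (bars) in the 4 comparisons, with a separate linear axis for each. Filled points have an adjusted p under 0.05 by edgeR's quasi-likelihood test: 1 and 1 in the comparisons of genotypes, 6 in HDM against PBS in wild type and 5 in DDAH1-transgenic mice.

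Levels were compared between genes as CPM per kb of transcript, and also per kb of coding sequence because the authors state that reads in coding regions were counted. In PBS-treated wild type mice Timp3 stood first of the 10 genes at 261 ± 5.54 CPM per kb of transcript (SD, n = 2 libraries), followed by Mmp14 at 16.3 ± 0.18 and Mmp2 at 9.90 ± 1.61, each apart from the next. Mmp19, Timp1, Mmp8, Mmp12 and Mmp3 came next, with the libraries of each overlapping those of its neighbour in this order, and Mmp13 was last at 0.341 ± 0.05. In PBS-treated DDAH1-transgenic mice Timp3 was again first, at 312 ± 4.52 CPM per kb, and Mmp14 and Mmp2 overlapped behind it. After HDM, the first place in wild type mice depended on the scale: per kb of transcript Mmp12 (207 ± 7.16) was above Timp3 (145 ± 0.82), but per kb of coding sequence it was below (527 ± 18.2 against 1079 ± 6.10). In HDM-treated DDAH1-transgenic mice Timp3 was above Mmp12 on both scales, at 175 ± 7.96 against 121 ± 24.9 CPM per kb of transcript.

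Set beside all 23 MMP genes of the table, Mmp12 made up 6.30% of the summed MMP level per kb of transcript in PBS-treated wild type mice and 61.3% after HDM, and 3.30% and 57.2% in DDAH1-transgenic mice. Per kb of coding sequence these shares were 8.68% and 68.5%, and 4.60% and 65.1%. Mmp14 held the largest share per kb of transcript in PBS-treated wild type mice, 21.8%, ahead of Mmp15, another membrane-anchored MMP. In PBS-treated DDAH1-transgenic mice the shares of Mmp14 (14.1% and 21.7%) and Mmp15 (16.4% and 18.4%) overlapped, and per kb of coding sequence Mmp15 was first in both groups. After HDM, Mmp19 was the second MMP on both scales in both genotypes, with 13.3% and 12.2% of the sum per kb of transcript. Of the summed level of the 4 TIMP genes per kb of transcript, Timp1 made up 1.57% in PBS-treated and 22.1% in HDM-treated wild type mice, and 0.401% and 16.9% in DDAH1-transgenic mice, while Timp3 went from 66.1% to 43.0% and from 64.9% to 54.1%. Per kb of coding sequence the share of Timp1 after HDM was lower, 5.78% in wild type and 4.12% in DDAH1-transgenic mice. The other TIMPs were Timp2, second in every group, and Timp4, which held at most 0.138% of the sum per kb of transcript in any library.

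**Figure D3:**
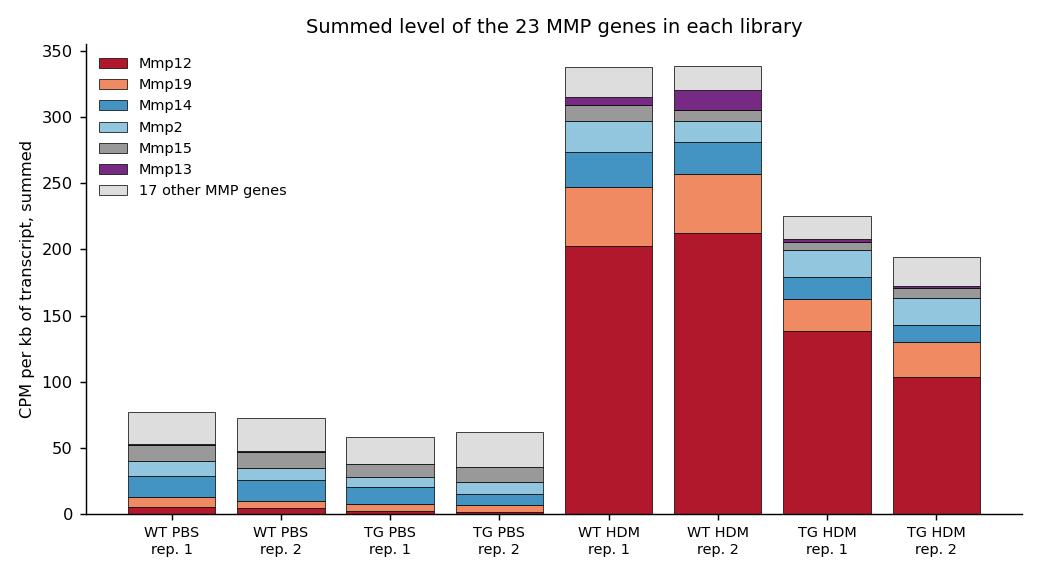
Summed level of the 23 MMP genes in each library, in CPM per kb of transcript on a linear axis from 0, with segments for 6 named genes and for the other 17 together. Mmp12 makes up between 53.0% and 62.7% of the sum in the 4 HDM-treated libraries and between 2.65% and 6.87% in the 4 PBS-treated libraries.

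In PBS-treated DDAH1-transgenic compared to PBS-treated wild type mice, Mmp8 was the only member to pass the test, and it was lower. Of the 9 members tested, 1 fell, against 0.657% of 14926 genes called in either direction and 0.375% called lower, and Mmp13 was too low to be tested. The log2 fold change of Mmp8 was -2.94 (SE 0.64, adjusted p = 0.0377, edgeR's quasi-likelihood test, Benjamini-Hochberg adjusted), from 144 and 110 counts in wild type to 19 and 11 counts in DDAH1-transgenic libraries. The call was lost without PBS-treated wild type replicate 1 (adjusted p = 0.502) and in a fit of all 8 libraries (adjusted p = 0.135), over a range from 0.00126 to 0.502. Mmp9, the other member stored in neutrophils, was also lower in both DDAH1-transgenic libraries than in either wild type library, and its log2 fold change of -2.43 (SE 0.75, adjusted p = 0.200, same edgeR test) did not pass. Without PBS-treated DDAH1-transgenic replicate 1, Mmp9 had a log2 fold change of -3.67 and an adjusted p of 0.00559, over a range from 0.00559 to 0.718, but that fit sets a single library with 6 counts against 2 and takes the spread from the other group. The 10 neutrophil markers in the table summed to 437 and 460 CPM in PBS-treated wild type and to 183 and 219 CPM in PBS-treated DDAH1-transgenic libraries. After HDM they summed to 224 and 238 CPM in wild type and to 243 and 271 CPM in DDAH1-transgenic libraries. The PBS-treated wild type libraries are also the reference of the HDM response in wild type mice. Between the genotypes after PBS, all 8 markers tested had a negative log2 fold change, 3 of them past the threshold (S100a8, S100a9 and Ngp). The granule gene Mpo was at 0 in every library and Elane at 0 in 7 of 8. The 5 thymocyte markers also summed to more in PBS-treated wild type libraries, 49.4 and 59.8 CPM, than in PBS-treated DDAH1-transgenic libraries, 14.0 and 17.8 CPM, with all 5 differences negative, 1 of them past the threshold and Dntt at 0 in both DDAH1-transgenic libraries. After HDM the thymocyte markers summed to between 11.5 and 17.7 CPM over the libraries of both genotypes. The share of counts from the ribosomal RNA gene Rn45S was 15.0% and 14.8% in PBS-treated wild type and 21.4% and 21.8% in PBS-treated DDAH1-transgenic libraries. The parts of neutrophil number, of thymocyte RNA and of the Rn45S share in the Mmp8 difference were not tested.

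With Mmp8 and Mmp9 counted, 7 of the 9 members tested in PBS-treated lungs did not overlap between the genotypes, against 40.3% of all genes tested. Mmp12 (log2 -1.27, SE 0.45, adjusted p = 0.294), Timp1 (log2 -1.69, SE 0.76, adjusted p = 0.470) and Mmp14 (log2 -0.62, SE 0.28, adjusted p = 0.481) were lower in both DDAH1-transgenic libraries and did not pass edgeR's quasi-likelihood test. In a fit of all 8 libraries, which share one estimate of the spread, Mmp12 and Timp1 passed with adjusted p of 0.00775 and 0.048, and their ranges over the alternatives were 0.00775 to 0.848 and 0.048 to 0.923. Timp3 was the single member with a positive difference (log2 0.25, SE 0.09, adjusted p = 0.329, edgeR). The median log2 fold change was -0.62 over the 9 members tested and 0.000792 over all genes.

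In HDM-treated DDAH1-transgenic compared to HDM-treated wild type mice, where Ddah1 was lower but did not pass the test, Mmp13 was the only member to pass it. Of 10 members, 1 fell, against 2.44% of 15191 genes called in either direction and 0.599% called lower, and 7 of 10 did not overlap between genotypes, against 48.2% of all genes. The log2 fold change of Mmp13 was -2.47 (SE 0.53, adjusted p = 0.0346, edgeR's quasi-likelihood test, Benjamini-Hochberg adjusted), from 184 and 404 counts to 40 and 53 counts. Without HDM-treated wild type replicate 2 it was -1.66 with an adjusted p of 0.433, without replicate 1 the adjusted p was 0.181, and with an offset for gene length 0.064, over a range from 6.75e-05 to 0.433. Mmp12 had a log2 fold change of -0.74 (SE 0.19), which is 0.599 times the wild type level, and an adjusted p of 0.0677 by edgeR. It passed under DESeq2 (adjusted p = 0.0083), without the low-count filter (0.00236) and in a fit of all 8 libraries (0.0174). Mmp12 did not pass with median-ratio size factors, with totals that leave out ribosomal RNA and haemoglobin genes or with the offset for gene length. Nor did it pass with either wild type replicate left out. It did pass without HDM-treated DDAH1-transgenic replicate 1 (log2 -0.99) or replicate 2 (log2 -0.53). Without 1 library its log2 fold change ranged from -0.99 to -0.53. Mmp19 (log2 -0.79, SE 0.21, adjusted p = 0.0789) lay close to the threshold in the same way, with a range from 0.0103 to 0.459, and passed under DESeq2 (0.0103), without the low-count filter (0.0229), in a fit of all 8 libraries (0.0397) and without HDM-treated DDAH1-transgenic replicate 2 (0.0112). Mmp9 passed without HDM-treated DDAH1-transgenic replicate 2 (adjusted p = 0.0341, over a range from 0.0341 to 0.863), a fit in which the only DDAH1-transgenic library is the one with 0 counts and the spread comes from the other group.

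The remaining members did not pass in HDM-treated mice by edgeR's quasi-likelihood test. Mmp14 (log2 -0.74, SE 0.28, adjusted p = 0.215) and Timp1 (log2 -0.40, SE 0.26, adjusted p = 0.486) were lower and Timp3 (log2 0.31, SE 0.16, adjusted p = 0.354) was higher in both DDAH1-transgenic libraries. Mmp2 (log2 0.09, SE 0.28), Mmp3 (log2 -0.11, SE 0.89) and Mmp8 (log2 -0.67, SE 0.82) overlapped between the genotypes. The median over the members was -0.70, and over all genes 0.01. Chil3, the most abundant of the alveolar macrophage markers, was lower in the DDAH1-transgenic libraries (log2 -1.21, SE 0.14, adjusted p = 0.00157, edgeR) and Fabp4, another of the 9, was higher (log2 2.06, SE 0.47, adjusted p = 0.0420), and the part of these cells in the Mmp12 value was not tested. The log2 fold changes of this comparison had a Spearman correlation of -0.281 with transcript length over 14455 genes, and genes are not independent of each other. For HDM against PBS in DDAH1-transgenic mice it was -0.331 over 14352 genes. The Rn45S share of counts was 16.7% and 21.5% in HDM-treated wild type and 8.58% and 9.37% in HDM-treated DDAH1-transgenic libraries. The part of this share in the differences between genotypes after HDM was not tested.

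The difference between the genotypes in the HDM response, an interaction fitted to all 8 libraries, passed the threshold for 0 of the 10 members by edgeR's quasi-likelihood test and for 0 by DESeq2, against 1.76% of 15868 genes, 1.05% higher and 0.706% lower. At an unadjusted p under 0.05 it held for 2 of the 10 members, Timp1 and Mmp8, against 14.7% of all genes. The interaction was 1.25 on the log2 scale for Timp1 (SE 0.48, adjusted p = 0.222) and 2.21 for Mmp8 (SE 1.03, adjusted p = 0.326, both edgeR), the sign meaning a more positive HDM response in DDAH1-transgenic mice. For Mmp12 it was 0.47 (SE 0.28, adjusted p = 0.473). The 2 HDM responses share no libraries with each other. Each shares its PBS-treated libraries with the comparison of genotypes after PBS, and its HDM-treated libraries with that after HDM.

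Around the 10 members, other genes of the pathway were examined from lists of other MMPs, other inhibitors, ADAM and ADAMTS proteases, the plasminogen system, activating proteases, cathepsins with antiproteases, matrix substrates, and inducers with AP-1 subunits. Among 6 cathepsins and antiproteases, 5 rose after HDM in each genotype, against 4.44% of all genes tested called higher in wild type and 8.43% in DDAH1-transgenic mice. Among them, Ctss, a matrix-degrading protease of macrophages and other antigen-presenting cells, rose 4.47-fold in wild type and 16.0-fold in DDAH1-transgenic mice, and Slpi, an inhibitor of neutrophil elastase, 5.53-fold and 33.6-fold. Ctsk, a collagen-degrading cathepsin, rose 8.97-fold and 13.1-fold, and Ctsb 2.59-fold and 3.04-fold (adjusted p between 1.03e-07 and 0.000142 in DDAH1-transgenic and between 7.80e-08 and 1.34e-05 in wild type mice, edgeR). In PBS-treated DDAH1-transgenic compared to wild type mice 2 of the 6 fell, against 0.375% of all genes tested, namely Slpi (log2 -1.51, SE 0.26, adjusted p = 0.00711) and Ctss (log2 -0.75, SE 0.16, adjusted p = 0.0338), whereas after HDM 3 of the 6 were higher in DDAH1-transgenic mice, against 1.84% of all genes tested, namely Ctss (log2 1.11, SE 0.15, adjusted p = 0.00249), Slpi (log2 1.12, SE 0.19, adjusted p = 0.0107) and Ctsl (log2 0.92, SE 0.21, adjusted p = 0.0456, all edgeR). The Ctss and Slpi calls after HDM were lost without HDM-treated wild type replicate 1 (adjusted p = 0.226 and 0.350) or replicate 2 (0.142 and 0.177), and that of Slpi also with the offset for gene length (log2 0.63, adjusted p = 0.113), with ranges from 2.48e-10 to 0.226 and from 1.35e-08 to 0.350. The Ctsl call was lost without either of these libraries (adjusted p = 0.466 and 0.323), without HDM-treated DDAH1-transgenic replicate 1 (0.0540) and with median-ratio size factors (0.0589), over a range from 1.72e-05 to 0.466. The Ctss call in PBS-treated mice was lost without wild type replicate 1 (adjusted p = 0.330), wild type replicate 2 (0.111) or DDAH1-transgenic replicate 2 (0.0541), over a range from 0.00223 to 0.330, and the Slpi call without wild type replicate 2 (0.0544, over a range from 7.67e-06 to 0.0569).

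**Figure D4:**
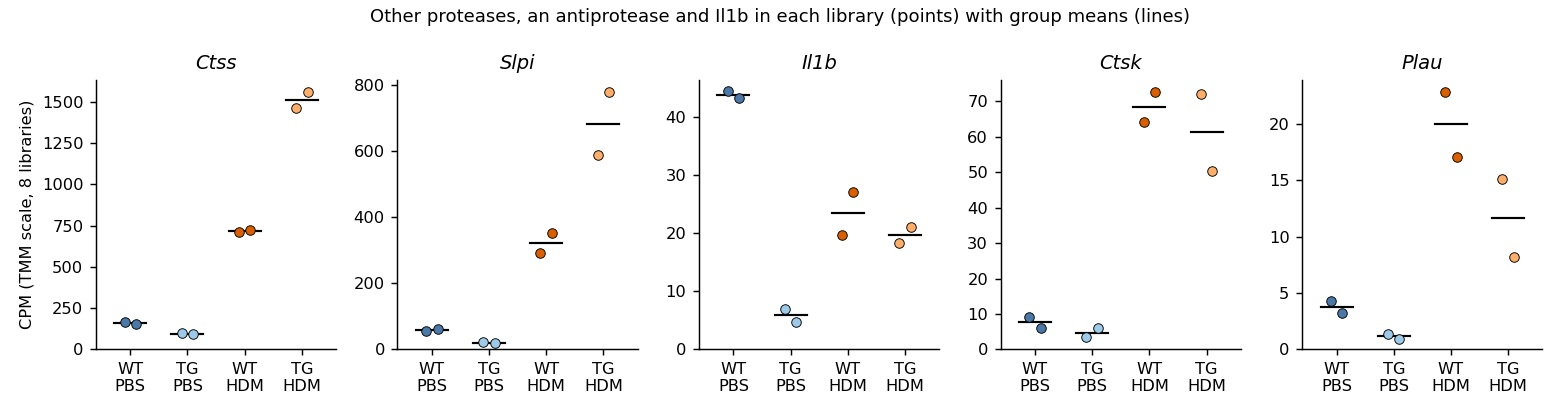
Level of 5 other genes of the pathway in CPM (linear axes that start at 0) in the 8 libraries, with 2 points per group for the 2 libraries of 1 RNA pool and a line at their mean. Ctss and Slpi were lower in DDAH1-transgenic than in wild type libraries after PBS and higher after HDM, and Il1b was highest in the 2 PBS-treated wild type libraries.

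Of the matrix substrates, Spp1 (osteopontin), Fn1 (fibronectin) and Col3a1 rose after HDM in both genotypes, 6.83-fold, 2.33-fold and 1.87-fold in wild type and 8.33-fold, 1.82-fold and 2.17-fold in DDAH1-transgenic mice, as 3 of 12 genes in the former and with Eln (2.90-fold) as 4 of 12 in the latter. In DDAH1-transgenic mice 3 of the 12 fell, Col4a2, Dcn and Bgn, which are named here after their values had been seen. After HDM, Col1a1 was lower in DDAH1-transgenic than in wild type mice (log2 -1.09, SE 0.20, adjusted p = 0.0178, edgeR), the single one of the 12 to pass. This call was lost with the offset for gene length (adjusted p = 0.0778) and without HDM-treated wild type replicate 1 (0.353) or replicate 2 (0.222), over a range from 3.15e-05 to 0.353 by edgeR and DESeq2. Plau, the urokinase that generates plasmin, was the 1 of 5 plasminogen-system genes tested that rose in wild type mice (5.25-fold), and in DDAH1-transgenic mice 2 of 6 rose, Plau (log2 3.32) and its receptor Plaur (2.81-fold). Adam8, a protease of leukocytes, rose 3.31-fold in wild type and 5.86-fold in DDAH1-transgenic mice. The wild type log2 fold change of Adam8 was 1.73, with 2.36 without PBS-treated replicate 1 and 1.27 without replicate 2, where the call was lost (adjusted p = 0.0599, edgeR, over a range from 4.55e-06 to 0.0599). In wild type mice 2 of 17 ADAM and ADAMTS genes fell, Adamts1 (0.444 times) and Adam33 (72 and 20 counts after PBS, 0 and 2 after HDM), and in DDAH1-transgenic mice 3 of 18 rose, Adam8, Adam17 (2.75-fold) and Adam10 (2.08-fold), and 2 fell, Adam28 (0.498 times) and Adamts9 (0.357 times). Adam10 was named after its values had been seen. Of all genes tested, 4.44% rose and 2.3% fell after HDM in wild type mice, and 8.43% and 5.35% in DDAH1-transgenic mice. Between genotypes after HDM, 0.599% of all genes tested were called lower.

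Of the other inhibitors, Reck, a membrane-anchored MMP inhibitor, fell to 0.551 times in wild type mice and Timp2 to 0.574 times in DDAH1-transgenic mice, where A2m went from 2 and 0 counts to 59 and 46 counts. None of the 8 other MMPs tested passed in wild type mice after HDM by edgeR or DESeq2, with 0 of 8 at an unadjusted p under 0.05. In DDAH1-transgenic mice 1 of 7 fell, Mmp28 (0.236 times), against 5.35% of all genes tested. Among inducers, Il1b, a cytokine that induces several MMPs, was 0.133 times the wild type level in PBS-treated DDAH1-transgenic mice (log2 -2.91, SE 0.35, adjusted p = 0.00015, edgeR), the single one of 11 to pass, against 0.657% of all genes tested. After HDM, Jun was lower in both genotypes (0.661 and 0.536 times), and in DDAH1-transgenic mice Il1b (3.40-fold) and Junb (2.88-fold) rose. None of the activating proteases passed the edgeR or DESeq2 test in any of the 4 comparisons, of 4 or 5 tested, with 1 of 4 at an unadjusted p under 0.05 in HDM-treated against PBS-treated DDAH1-transgenic mice and 0 in the others. Over all genes the share at an unadjusted p under 0.05 was 9.98% and 16.2% between genotypes after PBS and HDM, and 19.9% and 27.7% for HDM against PBS in wild type and in DDAH1-transgenic mice.

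Many calls of these other genes were lost when 1 library was left out, which leaves a lone library in its group. Some were lost with the log2 fold change little changed. For Timp2 in DDAH1-transgenic mice after HDM it was -0.80, and -0.81 without PBS-treated replicate 1 or replicate 2. In wild type mice after HDM, 9 of the 13 genes with a call kept it under every alternative (Adamts1, Ctss, Slpi, Ctsb, Ctsk, Spp1, Fn1, Col3a1 and Plau). The calls of Reck and Jun, with adjusted p of 0.0492 and 0.0491 by edgeR's quasi-likelihood test, were each lost in a fit of all 8 libraries and without either PBS-treated replicate or HDM-treated replicate 2, that of Reck also with the length offset, over ranges from 0.0119 to 0.299 and from 0.0148 to 0.351. The call of Adam33 was lost in a fit of all 8 libraries (0.0541) and without PBS-treated replicate 1 (0.553), over a range from 0.00181 to 0.553. In DDAH1-transgenic mice after HDM, 5 of the 20 genes with a call kept it under every alternative (Slpi, Ctss, Ctsb, Ctsk and Spp1). Without PBS-treated replicate 1 only 6 of the 20 calls held, and without replicate 2 only 5, the rest including Plau, Plaur, Il1b, Junb, Jun, Timp2, A2m, Mmp28, Adam17, Adam28, Adamts9, Fn1, Col3a1 and Eln in both cases. Without HDM-treated replicate 1 the log2 fold change of Junb went from 1.52 to 0.61 (adjusted p = 0.471, range 0.000183 to 0.471, edgeR and DESeq2), that of Plaur from 1.49 to 0.76 (0.407, range 0.00134 to 0.407) and that of Adam17 from 1.46 to 0.85, and the calls of Plau, A2m, Mmp28 and Adamts9 were lost, and without HDM-treated replicate 2 those of Il1b and Mmp28. With the length offset the calls of Adamts9, Il1b, Junb and Plaur were lost. The alternatives were not computed for Adam10, Col4a2, Dcn and Bgn.

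By Pearson correlation of log2 CPM, the genes whose level over the 8 libraries was most like that of Mmp12, out of 15867 genes, were Lipa (r = 0.997), Mki67 (0.996), Spp1 (0.995), Stk17b (0.992) and Smc2 (0.992). For Timp1 they were Gm4070 and Gvin1 (0.997582 each), Hspa5 (0.993), Iigp1 (0.992) and Gbp2 (0.991), and for Mmp8 they were Thrsp (0.954), Sh2b2 (0.931), Cahm (0.916), Zfp128 (0.912) and Cfap69 (0.907). Gm4070 and Gvin1 had the same r, and whether they hold the same reads was not tested. These correlations describe 8 libraries from 4 RNA pools that fall apart by treatment, and the libraries of a pool share their mice.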

How the data were processed

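Lung RNA of the 4 groups was sequenced as 2 libraries per group, and groups and replicates were taken from the sample titles. Amplified RNA was sequenced by the authors as single reads, which TopHat placed on mm10 (GRCm38). The authors state that reads over coding regions were summed per gene. Genes without coding sequence, such as Xist and Rn45S, also hold counts, so which parts of a gene were counted is not certain. The counts that the authors deposited are raw counts for 23469 Entrez identifiers. The version of TopHat, the annotation and the use of strand are not given in the sources used here. Within a group, both libraries differed beyond sampling noise (mean chi-square per gene between 13.5 and 29.5) and were kept as replicates. Since they come from one RNA pool, p-values measure the spread between libraries and not between mice.

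For each comparison, edgeR's quasi-likelihood test (edgeR 4.0.16, R 4.3.3) was run on the 4 libraries concerned after TMM scaling and filterByExpr at a minimum count of 10, and the interaction on all 8 libraries. Benjamini-Hochberg adjustment covered every gene tested, and the threshold was 0.05. SE is the size of the log2 fold change divided by the square root of F. Log2 CPM had a prior count of 2. Intervals and floors cover counting error only. The fitting script was run on simulated counts with known changes, from which no value is used here. Symbols and positions came from RefSeq (GRCm38.p6) for 23372 identifiers and lengths from GENCODE M21. The alternatives were median-ratio size factors, DESeq2 1.42.0, no filter on low counts, a block for the replicate number, totals that leave out ribosomal RNA and haemoglobin genes, an offset for gene length, a fit of all 8 libraries and leaving out each library. The members, the gene lists and the tests were chosen with earlier results of these data known. Named beside the members were at most the 4 genes with the smallest p past the threshold in each list that is not a marker list, and the 5 genes most correlated with Mmp12, Mmp8 and Timp1.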

Additional observations from a re-analysis of the deposited data

Results flagged for a closer look

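For 3 genes of the pathway lists the response to HDM differed between the genotypes by the interaction test on all 8 libraries (edgeR's quasi-likelihood test, Benjamini-Hochberg adjusted). They were 2 of 6 cathepsins and antiproteases tested and 1 of 14 inducers and AP-1 subunits. Of 15868 genes tested, 1.76% passed, 1.05% as higher. The interaction had a Spearman correlation of -0.241 with transcript length over 15018 genes, and the 3 calls held with the offset for gene length. The interaction was 2.58 on the log2 scale for Slpi (SE 0.25, adjusted p = 8.04e-06), an inhibitor of serine proteases. It was 1.81 for the protease gene Ctss (SE 0.19, adjusted p = 1.70e-05). For the cytokine gene Il1b it was 2.65 (SE 0.50, adjusted p = 0.00762). In each case the HDM response was more positive in DDAH1-transgenic mice. Il1b was 44.4 and 43.3 CPM in PBS-treated and 19.8 and 27.1 CPM in HDM-treated wild type libraries, and 6.99 and 4.76 CPM in PBS-treated and 18.3 and 21.1 CPM in HDM-treated DDAH1-transgenic libraries. Its call was lost without PBS-treated DDAH1-transgenic replicate 2 (adjusted p = 0.0514, over a range from 3.26e-05 to 0.0514). Over the same alternatives the adjusted p lay between 4.19e-20 and 9.56e-05 for Slpi and between 2.81e-17 and 0.000224 for Ctss.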

How the results depend on the processing

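The cause of the differences below was not tested. Between genotypes after PBS, 98 genes passed the threshold (223 with DESeq2, 306 without the low-count filter, 75 to 432 without 1 library). After HDM 370 passed, of which 75.4% were higher (922 with DESeq2, 1055 without the filter, 174 with the length offset, 771 in a fit of all 8 libraries, 6 to 1595 without 1 library). The share of higher genes was then 61.5% with the length offset. Without HDM-treated wild type replicate 1 or 2, 6 and 20 genes passed. For HDM against PBS, 1020 genes passed in wild type mice (1588 without the filter, 652 to 1661 without 1 library) and 2079 in DDAH1-transgenic mice (1348 with the length offset, 277 to 2676 without 1 library), the 277 without PBS-treated replicate 2. For the interaction 279 passed (680 with DESeq2, 675 without the filter, 138 to 723 without 1 library). Members past the threshold numbered 1 between genotypes after PBS (2 in a fit of all 8, 0 to 2 without 1 library), 1 after HDM (3 with DESeq2, without the filter and in a fit of all 8, 0 with the length offset, 0 to 4 without 1 library), 6 for HDM in wild type (5 to 7 without 1 library), 5 in DDAH1-transgenic mice (6 with DESeq2, without the filter, with the replicate block and in a fit of all 8, 3 to 5 without 1 library) and 0 for the interaction under every alternative. Same-numbered libraries did not deviate together (correlations between -0.021 and 0.017), so the replicate numbers were not taken as pairs. With the replicate block, 46 genes and 0 members passed between genotypes after PBS and 625 genes and 2 members after HDM, the calls of Mmp8 (adjusted p = 0.118), Ctss (0.106) and Slpi (0.0569) between genotypes after PBS and of Adam33 for HDM in wild type mice (0.0504) were not made, those of Mmp12 between genotypes after HDM (0.0112) and of Mmp13 for HDM in DDAH1-transgenic mice (0.0301) were, all by edgeR's quasi-likelihood test, and Mmp3 changed sign between genotypes after HDM (0.52) and in the interaction (0.086).

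Of 1048 gene values under the alternatives, 919 kept their direction and side of the threshold, 85 were no longer past it, 20 newly passed it and 24 changed sign, all of these for members that had not passed. Without 1 library, log2 fold changes that changed sign ranged from -0.36 to 0.18 for Mmp3 between genotypes after PBS, and after HDM from -0.94 to 2.13 for Mmp3, -1.32 to 0.55 for Mmp8 and -0.17 to 0.40 for Mmp2. For HDM they ranged from -2.54 to 0.55 for Mmp3 in wild type and from -6.74 to 0.75 for Mmp9 in DDAH1-transgenic mice. In the interaction they ranged from -0.86 to 2.23 for Mmp3, -5.87 to 1.87 for Mmp9, -1.92 to 0.46 for Mmp13, -0.41 to 0.12 for Mmp14, -0.0056 to 0.58 for Mmp2 and -0.029 to 0.058 for Timp3.

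Leaving out 1 library leaves a lone library in its group, which is assumed to vary like the other groups. A two-sided exact permutation test of 2 against 2 libraries could not give a p below 0.333. Members at few counts, such as Mmp13 after PBS and Mmp9 after HDM in DDAH1-transgenic mice, are measured poorly at this depth.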
